A study of Mus musculus with 503 samples.

Results

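Integrins are the receptors through which perivascular cells hold on to the vascular basement membrane and to scar matrix. Levels of 10 integrin genes, *Itga1*, *Itga4*, *Itga5*, *Itga7*, *Itga8*, *Itga11*, *Itgav*, *Itgb1*, *Itgb3* and *Itgb5*, were read from single cells of the mouse spinal cord. The genes were chosen by their symbols, and all 10 were present among the 56701 gene rows of the count table. The cells came from adult *GLAST-CreERT2;R26R-tdTomato;Pdgfrb-eGFP* mice, the genotype shared by every group, and the labels give their sex as female. The paper's reporting summary speaks of both sexes for its sequencing experiments. EGFP marks cells with activity of the *Pdgfrb* reporter, and tdTomato marks cells recombined by tamoxifen in the *GLAST* (*Slc1a3*) Cre line together with any of their progeny. tdTomato+EGFP+ and tdTomato-EGFP+ cells were sorted from the uninjured cord and from the lesion segment 3 days after a spinal crush (3d_SCI), and Smart-seq3 libraries were made from single cells. After filtering, 468 of 503 cells were kept. Uninjured cells came from plates 209 and 213, with 65 and 72 tdTomato+EGFP+ and 46 and 60 tdTomato-EGFP+ cells, and 3d_SCI cells from plates 211 and 215, with 88 and 34 tdTomato+EGFP+ and 58 and 45 tdTomato-EGFP+ cells.

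An integrin is a dimer of 1 α and 1 β subunit. The β1 subunit (*Itgb1*) pairs with most α subunits in the set: α1 and α11 (*Itga1*, *Itga11*) then bind collagens, α7 (*Itga7*) binds laminins of the basement membrane, α5 and α8 (*Itga5*, *Itga8*) bind the RGD motif of ligands such as fibronectin and nephronectin, and α4 (*Itga4*) binds VCAM-1 and fibronectin. The αv subunit (*Itgav*) pairs with β1, β3 or β5 (*Itgb3*, *Itgb5*) in RGD receptors for vitronectin, osteopontin and fibronectin, some of which also activate latent TGF-β. Pericytes and smooth muscle cells rest in a laminin- and collagen IV-rich basement membrane, whereas the fibrotic scar is rich in fibronectin and fibrillar collagen.

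No label names an animal, so the cells of each group were summed and each group was treated as 1 sample. No difference below therefore has a replicate check, and no test was made. Levels are CPM, the summed counts scaled to a total of 1000000, with exact 95% Poisson intervals that cover counting error only. Summed counts of the groups ran from 25645409 to 38406035. Since no plate held both conditions, injury and plate cannot be told apart, whereas both sorted populations were on every plate. In the 3d_SCI tdTomato+EGFP+ group, 94.6% of the counts were on plate 211, and the median cell on plate 215 had 14770 counts. In such sums, fewer cells of a type and less RNA per cell cannot be told apart.

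The labels were checked against their genes. *Pdgfrb* had a count in 99% to 100% of cells of each group once each cell was thinned to 20000 counts. *Slc1a3* had a count in 44.9% of uninjured and 66% of 3d_SCI tdTomato+EGFP+ cells, against 20.7% and 8.82% of tdTomato-EGFP+ cells. Pericyte markers (9 genes) summed to 11104 CPM in uninjured tdTomato+EGFP+, 12234 CPM in uninjured tdTomato-EGFP+ and 11318 CPM in 3d_SCI tdTomato-EGFP+ cells, but to 730 CPM in 3d_SCI tdTomato+EGFP+ cells. The sum of perivascular fibroblast markers (8 genes) went the other way, from 3620 CPM in uninjured to 19718 CPM in 3d_SCI tdTomato+EGFP+ cells. It was also higher after injury in the tdTomato-EGFP+ sort, at 8425 against 1867 CPM. Not every marker stood behind these sums: by the call rule given below, 4 of the 8 were higher in the tdTomato+EGFP+ and 6 in the tdTomato-EGFP+ sort. Of all genes tested, 10.8% and 9.52% were. Cycling markers (6 genes) were 1167 against 8.33 CPM in the first sort and 626 against 8.52 CPM in the second. Stromal fibroblast markers (7 genes) were 4232 against 788 CPM and 3422 against 846 CPM. Vascular smooth muscle cell (vSMC) markers (6 genes) differed between the sorts, at 934 CPM in uninjured tdTomato+EGFP+ against 2992 CPM in uninjured tdTomato-EGFP+ cells. After injury they summed to 1360 and 2602 CPM. Endothelial markers (5 genes, each with counts in every group) summed to 3635 and 3947 CPM in the uninjured groups and to 345 and 1423 CPM in the injured ones, although cells high in *Pecam1* had been removed. The part of these marker differences in the integrin differences was not tested.

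Upstream sequences are shown for 3 members that differed in opposite directions in tdTomato+EGFP+ cells: *Itga5*, which was higher after injury, and *Itga1* and *Itga4*, which were lower. Each is the 250 bases before the RefSeq transcript start (GRCm38.p6), 5′ to 3′ on the gene's strand, with matches to the GC box (GGGCGG, either strand) in capitals. The *Itga5* sequence lies at chr15:103366792-103367041 (minus strand), that of *Itga1* at chr13:115101965-115102214 (minus strand) and that of *Itga4* at chr2:79255176-79255425 (plus strand).
Itga5: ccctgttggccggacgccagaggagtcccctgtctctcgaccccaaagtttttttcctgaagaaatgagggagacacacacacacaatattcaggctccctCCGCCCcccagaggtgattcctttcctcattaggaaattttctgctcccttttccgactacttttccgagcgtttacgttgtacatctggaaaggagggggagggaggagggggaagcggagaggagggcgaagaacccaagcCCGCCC
Itga1: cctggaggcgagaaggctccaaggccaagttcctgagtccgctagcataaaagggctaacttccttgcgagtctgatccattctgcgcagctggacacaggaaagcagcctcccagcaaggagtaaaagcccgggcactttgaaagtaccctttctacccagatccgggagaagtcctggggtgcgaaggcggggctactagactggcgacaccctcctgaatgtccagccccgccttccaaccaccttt
Itga4: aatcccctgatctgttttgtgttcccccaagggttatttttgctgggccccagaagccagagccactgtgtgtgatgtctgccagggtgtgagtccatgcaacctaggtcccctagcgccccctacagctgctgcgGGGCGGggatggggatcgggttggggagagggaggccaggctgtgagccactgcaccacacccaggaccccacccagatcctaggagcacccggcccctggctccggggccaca
The *Itga5* sequence held 2 GC boxes, that of *Itga4* held 1 and that of *Itga1* none. The GC box was found in 32.7% of 32851 promoter windows of the same length, an AP-1 motif (TGANTCA) in 6.75%, a TEAD motif (GGAATG) in 12.6% and an E-box (CACGTG) in 6.02%, searched on both strands. Neither *Itga5*, *Itga1* nor *Itga4* held an AP-1, TEAD or E-box match. A match is a description of the letters and not a binding site. Of the 10 members, 8 matched an entry in the promoter table. In the GENCODE M21 annotation of GRCm38, *Itga5* spans chr15:103344286-103366763, *Itga1* chr13:114953096-115101964, *Itga4* chr2:79255426-79333123, *Itga7* chr10:128933818-128958282, *Itga8* chr2:12106632-12301922 and *Itgb3* chr11:104608000-104670476. All 10 members are protein-coding.

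In the uninjured cord *Itga1*, *Itgb1* and *Itgav* were at close levels in the 2 sorted populations, and the other members differed more. *Itga1* was 453.1 CPM (446.4 to 459.9) in tdTomato+EGFP+ cells against 481.5 CPM in the tdTomato-EGFP+ sort, and the plates were close, at 465.3 and 444.3 CPM against 466.1 and 488.9 CPM. *Itgb1* was 315.7 against 375.3 CPM, and *Itgav* 50.77 against 54.71 CPM. The members called here, by a difference of at least 1 in log2(CPM + 1), at least 10 CPM in the higher group and the same direction on every plate, were *Itga5* and *Itga11*. *Itga5* was 59.89 CPM (34.96 and 77.84 on plates 209 and 213) in tdTomato+EGFP+ cells against 28.64 CPM (21.54 and 32) in the other sort, a log2 difference of 1.04. *Itga11*, the fibroblast receptor for fibrillar collagen, was 25.75 CPM (32.16 and 21.14) against 11.9 CPM (17.37 and 9.315), a log2 difference of 1.05. Both were higher on both plates. Of 11198 genes tested, 4.31% were called higher in tdTomato+EGFP+ cells and 3.61% lower, against 2 and 0 of the 9 members tested. Both calls sat at the edge of the size rule: *Itga5* fell below it with equal weight of the plates (0.97) and *Itga11* likewise (0.98).

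*Itga7*, the laminin receptor subunit of muscle and mural cells, was 138.5 CPM in the tdTomato+EGFP+ sort of the uninjured cord against 260.5 CPM in the tdTomato-EGFP+ sort, and the log2 differences on the 2 plates were -1.23 and -0.71. *Itga4* was 61.29 against 101.6 CPM. Neither passed the size rule, but on both plates both were lower in tdTomato+EGFP+ cells. *Itgb5* was 167.2 against 235.2 CPM. *Itga8* was 34.77 against 33.46 CPM on plate 209 but 10.17 against 43.94 CPM on plate 213, so the plates did not give 1 direction. *Itgb3*, at 9.035 against 5.579 CPM, was below the level at which genes were tested. Per kilobase of exon, which allows genes to be compared, the order in uninjured tdTomato+EGFP+ cells was *Itgb1* (77.4 CPM per kb), *Itgb5* (47.1), *Itga1* (24.4), *Itga7* (17.1), *Itga5* (12.1), *Itga11* (5.02), *Itgav* (4.73), *Itga4* (4.38), *Itga8* (2.78) and *Itgb3* (1.53). *Itgb1*, *Itgb5* and *Itga1* were each apart from their neighbours on both plates. The ranges over plates of *Itga7* and *Itga5* overlapped, as did those of *Itga11*, *Itgav*, *Itga4* and *Itga8*, and those of *Itga8* and *Itgb3*.

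**Figure D1:**
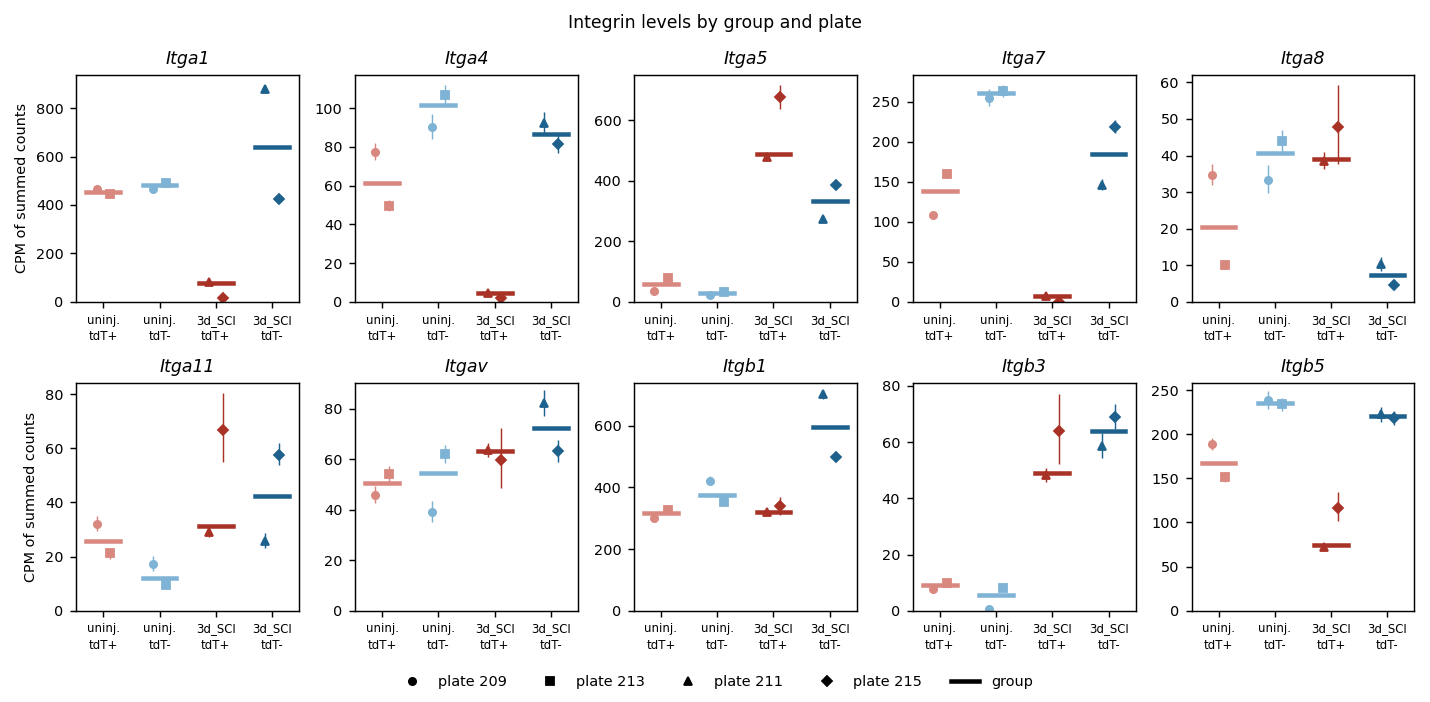
Level of each integrin (CPM of summed counts, linear axis from 0) in the 4 groups; bars are groups, points are plates and error bars are exact 95% Poisson intervals. *Itga1*, *Itga4* and *Itga7* are lowest in 3d_SCI tdTomato+EGFP+ cells on both of its plates, and *Itga5* and *Itgb3* are higher on every injured plate than on any uninjured plate.

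After injury, tdTomato+EGFP+ cells had less of the collagen receptor subunit *Itga1*, the laminin receptor subunit *Itga7*, the VCAM-1 and fibronectin receptor subunit *Itga4* and the αv partner *Itgb5*, and more of *Itga5* and *Itgb3*. *Itga1* was 80.11 CPM (83.85 on plate 211 and 14.31 on plate 215) in 3d_SCI cells against 453.1 CPM in uninjured cells, a log2 difference of -2.49. *Itga4* was 4.561 CPM (4.719 and 1.789) against 61.29 CPM (77.5 and 49.62), a log2 difference of -3.49 that turned to 1.59 when cells with 100 CPM or more of endothelial genes were left out, which kept 18 uninjured and 37 3d_SCI cells. *Itga7* was 7.163 CPM against 138.5 CPM (108.5 and 160.1), a log2 difference of -4.10, with 7.571 CPM on plate 211 and no count on plate 215, where 3 counts would be 1.79 CPM. Without the endothelial-marked cells *Itga1* was still called lower (-1.42), while *Itga7*, at -3.99, no longer met the call rule. The plates of the 2 conditions did not overlap in any of these genes. *Itgb5* was 74.36 CPM (71.94 and 116.9) against 167.2 CPM (189 and 151.5), a log2 difference of -1.16 that was not called with TMM scaling (-0.49). A large part of all genes was lower in this comparison: of 11429 genes tested, 34.3% were called lower and 10.8% higher, and their median log2 difference was -0.59. Against this background 4 of 10 members were called lower and 2 higher. The count of 4 in 10 is near the share of all genes called lower, and is no result about the members as a set. With the median of all genes subtracted, *Itga1*, *Itga4* and *Itga7* were at -1.90, -2.90 and -3.51, and *Itgb5* was at -0.57.

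*Itga5*, the α subunit of the classical fibronectin receptor, was 489.4 CPM (478.8 and 676.1 on plates 211 and 215) in 3d_SCI tdTomato+EGFP+ cells against 59.89 CPM (34.96 and 77.84) in uninjured ones, a log2 difference of 3.01. Its 4 plate pairs ran from 2.61 to 4.24. *Itgb3*, the β subunit of the αvβ3 vitronectin and osteopontin receptor, was 49.18 CPM (48.34 and 63.8) against 9.035 CPM (7.775 and 9.942), a log2 difference of 2.32. Both genes were higher on each injured plate than on any uninjured plate. In uninjured cells *Itgb3* was mostly a matter of few cells: the highest single cell held 42.9% of its counts in the tdTomato+EGFP+ and 62% in the tdTomato-EGFP+ group.

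The other members were not called. *Itgb1* was 321.8 CPM (320.8 and 339.3) in 3d_SCI tdTomato+EGFP+ cells against 315.7 CPM (300.9 and 326.3) before injury, a log2 difference of 0.03. *Itgav* was 63.5 CPM (63.72 and 59.62) against 50.77 CPM (45.97 and 54.23), a log2 difference of 0.32 that reached the size rule with median-of-ratios scaling (1.12). *Itga8* was 39.12 CPM (38.63 and 47.7) against 20.47 CPM (34.77 and 10.17), a log2 difference of 0.90 that passed the size rule with TMM scaling (1.56) and turned to -1.52 without the endothelial-marked cells. *Itga11* was 31.25 CPM (29.23 and 66.78) against 25.75 CPM, and its plates overlapped between conditions. Per kilobase, *Itga5* moved to the first place in this group with 99.2 CPM per kb, ahead of *Itgb1* with 78.9, and *Itga4* was last with 0.326.

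In tdTomato-EGFP+ cells the same RGD receptor subunits were higher after injury, and *Itga1*, *Itga4* and *Itga7* were not called. *Itga5* was 333.7 CPM (274.8 and 387.2) against 28.64 CPM (21.54 and 32), a log2 difference of 3.50. *Itgb3* was 64.11 CPM (58.68 and 69.03) against 5.579 CPM (0.5789 and 7.945), a log2 difference of 3.31. *Itga11* was 42.46 CPM (25.74 and 57.65) against 11.9 CPM (17.37 and 9.315), a log2 difference of 1.75. These 3 members were called higher and *Itga8* lower, against 9.52% and 17% of the 11434 genes tested. *Itga8* was 7.331 CPM (10.24 and 4.686) in 3d_SCI cells against 40.58 CPM (33.46 and 43.94) in uninjured cells, a log2 difference of -2.32, with all 4 plate pairs lower. Without the endothelial-marked cells, which left 22 uninjured and 36 3d_SCI cells of this sort, *Itgb3* turned to -0.20 and *Itga11* dropped to 0.60, whereas *Itga5* and *Itga8* kept their calls at 2.78 and -4.66.

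The subunits that were low in injured tdTomato+EGFP+ cells were not called here. *Itga1* was 639.1 CPM against 481.5 CPM, but its injured plates lay on either side of the uninjured ones, at 877.1 and 423.2 CPM against 466.1 and 488.9 CPM. *Itga4* was 86.64 CPM against 101.6 CPM and *Itga7* 184.5 CPM against 260.5 CPM, with log2 differences of -0.23 and -0.50. Without the endothelial-marked cells *Itga1* and *Itga4* were called higher after injury, at 1.58 and 2.13. *Itgb1* was 595.4 CPM (701.9 and 498.7) against 375.3 CPM (421.8 and 353.4), higher on each injured plate, with a log2 difference of 0.66. *Itgav* was 72.33 against 54.71 CPM and *Itgb5* 220.1 against 235.2 CPM.

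**Figure D2:**
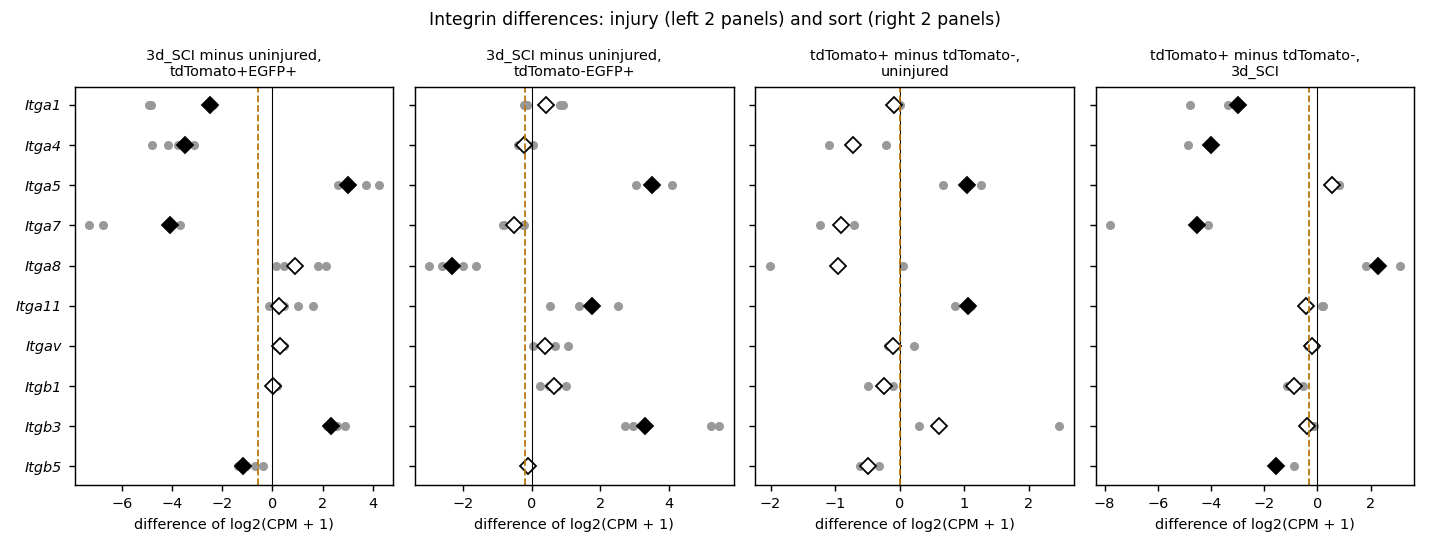
Differences of log2(CPM + 1) for each integrin; the left panels give 3d_SCI minus uninjured within each sorted population and the right panels tdTomato+ minus tdTomato- within each condition. Diamonds are group values (filled where called), grey points are plate pairs or plates and the dashed line is the median of all genes tested; *Itga1*, *Itga4* and *Itga7* are called lower after injury in tdTomato+EGFP+ cells, at -2.49, -3.49 and -4.10, and are closer to 0 in tdTomato-EGFP+ cells, at 0.41, -0.23 and -0.50.

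Set against each other within the injured plates, the 2 populations carried different integrins. *Itga1*, *Itga4*, *Itga7* and *Itgb5* were called lower in 3d_SCI tdTomato+EGFP+ than in 3d_SCI tdTomato-EGFP+ cells, with log2 differences of -2.98, -3.98, -4.51 and -1.55. *Itga8* was called higher, with a log2 difference of 2.27 (1.82 and 3.10 on the 2 plates). Of 10631 genes tested, 17.9% were called lower and 4.31% higher, against 4 and 1 of the 10 members. *Itgb5* fell below the size rule on plate 215 alone (-0.89). *Itga5* was 489.4 against 333.7 CPM and higher on both plates, by 0.80 on each, but below the size rule. *Itgb1* (-0.89), *Itgb3* (-0.38) and *Itgav* (-0.19) were not called, and the last pair turned positive with median-of-ratios scaling. For *Itga11* the sums gave a log2 difference of -0.43 while both plates gave a positive one, 0.18 and 0.21, because the plates hold unequal parts of the counts of the 2 groups.

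Subtracting the injury effect in tdTomato-EGFP+ cells from that in tdTomato+EGFP+ cells gave a difference that was called lower for 5 members and higher for 1. For *Itga1* it was -2.89, for *Itga4* -3.26 and for *Itga7* -3.60 on the log2 scale. For *Itga11* and *Itgb5* it was -1.48 and -1.06, but no plate pair of *Itga11* reached 1 in size (-0.92 to -0.64), and *Itgb5* was at -0.50 with median-of-ratios scaling. *Itga8* was the member called higher, at 3.22, with plate pairs from 1.76 to 5.11. Over 12081 genes tested, 20.6% were called lower and 4.57% higher. *Itga5* was at -0.49, with plate pairs on both sides of 0. *Itgav* (-0.08), *Itgb1* (-0.64) and *Itgb3* (-0.98) were not called either. Without the endothelial-marked cells the value of *Itga4* shrank to -0.54 and that of *Itga7*, at -3.39, no longer met the call rule, whereas *Itga1* and *Itga8* kept their calls, the latter at 3.13.

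Shares of single cells with a count were read at equal depth, after each cell was thinned to 20000 counts, which left at least 92 cells in each group. In what follows the first value of a pair is the tdTomato+EGFP+ and the second the tdTomato-EGFP+ sort. *Itga5* had a count in 29.1% and 21.7% of uninjured and in 92% and 73.5% of injured cells. *Itgb3* had a count in 6.3% and 6.52% of uninjured and in 43% and 44.1% of injured cells. *Itga7* was found in 55.9%, 66.3% and 56.9% of cells of the other groups and in 4% of 3d_SCI tdTomato+EGFP+ cells, with an exact 95% binomial interval of 1.1% to 9.93%. *Itga4* was found in 7% of those cells, against 44.1% to 50% elsewhere. For *Itga1*, 39% of 3d_SCI tdTomato+EGFP+ cells still had a count, against 75.5% to 85.9% in the other groups. *Itgb1* was found in 89.8% to 99% of cells in every group.

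**Figure D3:**
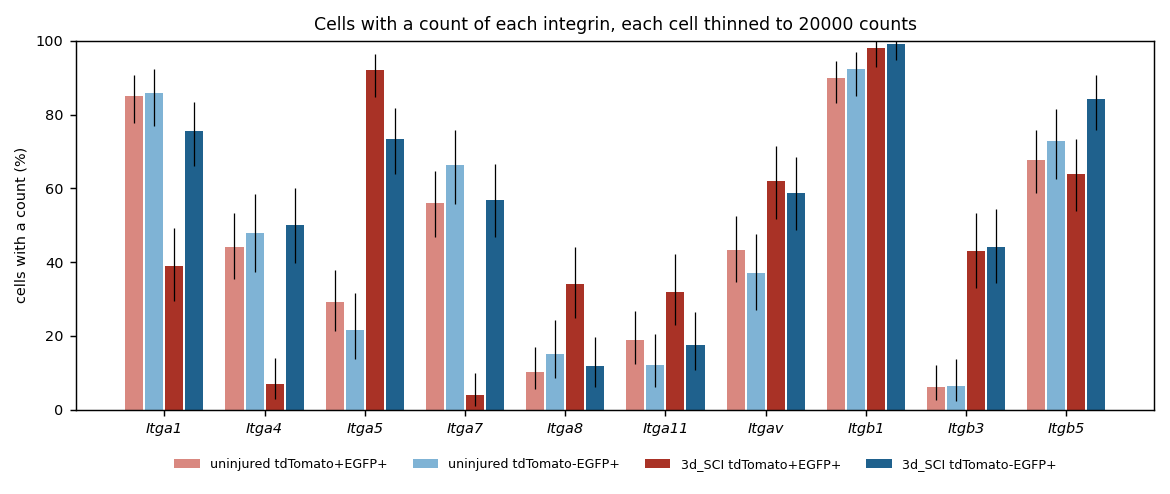
Percent of cells with a count of each integrin in the 4 groups, each cell thinned to 20000 counts; bars start at 0 and error bars are exact 95% binomial intervals, which cover counting error only. *Itga5* is in 92% of 3d_SCI tdTomato+EGFP+ cells and *Itga7* in 4% of them.

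Dimer partners were then counted in the same cells. *Itga5* and *Itgb1* were found together in 26.8% and 19.6% of uninjured and in 90% and 73.5% of injured cells. *Itgav* and *Itgb3* were found together in 3.15% and 2.17% of uninjured and in 32% and 32.4% of injured cells, although *Itgav* itself was in 43.3%, 37%, 62% and 58.8% of cells. *Itga7* and *Itgb1* were found together in 52% and 60.9% of uninjured cells, in 4% of 3d_SCI tdTomato+EGFP+ cells and in 56.9% of 3d_SCI tdTomato-EGFP+ cells. In the last group *Itga7* and *Itga5* were found together in 37.3% of cells (27.9% to 47.4%), against 11.8% and 14.1% of uninjured cells. In 3d_SCI tdTomato+EGFP+ cells they were found together in 3%. Joint shares depend on the share of each gene alone, which in the last group was 56.9% for *Itga7* and 73.5% for *Itga5*. Whether any pair went together within cells more than its single shares give was not tested. A cell held a median of 5, 5, 5 and 6 of the 10 members. These are transcripts in a cell and not dimers at its surface.

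Cells were clustered with all integrin genes kept out of the clustering, so that the levels by cluster did not define it. Of 7 clusters, 4 were named by the list of which they raised the most markers: cluster 7 (18 cells) was vSMC-like (5 of 6 markers), clusters 4 (48 cells, 7 of 9) and 6 (31 cells, 8 of 9) pericyte-like and cluster 3 (70 cells, 8 of 8) perivascular fibroblast-like. Cluster 4 also raised 3 of 7 stromal fibroblast and 2 of 6 vSMC markers, cluster 3 raised 4 of 7 stromal fibroblast markers, and endothelial markers summed to 2963 CPM in cluster 6. Cluster 4 held 47 cells of the 3d_SCI tdTomato-EGFP+ group and was led by *Ccl5* and *Ednrb*. It therefore cannot be compared between groups, although only 45.6% of the cells of that group were in it. Clusters 2 and 5 carried pericyte markers (8 and 4 of 9) together with endothelial ones (5 and 4 of 5). Cluster 1, with 100 cells of the 3d_SCI tdTomato+EGFP+ and 19 of the 3d_SCI tdTomato-EGFP+ group, carried fibroblast and cycling markers. For these mixed markers the 3 clusters were left unnamed, although cluster 2 raised as many pericyte markers as cluster 6.

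*Itga7* was 730.1 CPM in the vSMC-like cluster, 288.2 and 215.3 CPM in the pericyte-like clusters 6 and 4, and 0.298 CPM in the perivascular fibroblast-like cluster. The vSMC-like cluster held 14 uninjured tdTomato-EGFP+ and 3 uninjured tdTomato+EGFP+ cells. Those 14 held 26.8% of the *Itga7* and 29.2% of the *Itgb1* counts of their group. The part of this in the uninjured differences between the sorts was not tested. *Itga4* was 0.844 CPM in the fibroblast-like cluster against 62.9 to 122.3 CPM in the vSMC-like and pericyte-like clusters. *Itga1* was 1009 and 733.3 CPM in pericyte-like clusters 4 and 6 and 47.2 CPM in the fibroblast-like cluster. These 3 members, low in injured tdTomato+EGFP+ cells, were also each lowest in the fibroblast-like cluster. Most 3d_SCI tdTomato+EGFP+ cells, however, were in the unnamed cluster 1. In the 100 of them in cluster 1, *Itga1*, *Itga4* and *Itga7* were 66.1, 3.39 and 6.33 CPM. In the 18 in the fibroblast-like cluster these genes were 26.5, 1.8 and 0.898 CPM. The part of cluster make-up in the lower levels was not tested. Across the named clusters *Itga11* ran the opposite way to these 3 members, with 98.9 CPM in the fibroblast-like cluster and 2.33 to 8.75 CPM in the pericyte-like and vSMC-like ones. *Itgb1* was highest in the vSMC-like cluster, at 901.4 CPM, and *Itgav* ran from 35.8 to 110.2 CPM over the 7 clusters.

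*Itga5* and *Itgb3* differed between the 2 pericyte-like clusters, which hold different conditions. In cluster 6, from the uninjured cord, *Itga5* was 2.38 CPM in the 16 cells of the tdTomato+EGFP+ sort and 40.3 CPM in the 14 of the tdTomato-EGFP+ sort. In the 47 3d_SCI tdTomato-EGFP+ cells of cluster 4 it was 504.9 CPM. Single cells held 66.7% and 58.2% of the counts behind 2.38 and 40.3 CPM. *Itgb3* had no count in those 30 cells of cluster 6 and was 99.9 CPM in the cells of cluster 4. Clusters 2 and 5, which carried pericyte and endothelial markers, held tdTomato-EGFP+ cells of both conditions. In cluster 5 *Itga5* was 62.2 CPM in 10 uninjured and 61.8 CPM in 12 3d_SCI cells of that sort. A single cell held 49.6% of the counts behind 62.2 CPM. A count was found in 3 of 10 and 10 of 12 cells, and in 2 of 9 and 4 of 12 after thinning. In cluster 2 *Itga5* was 17.9 CPM in 51 and 118.9 CPM in 5 cells, with 49% of the latter counts in a single cell. The summed levels of *Itga5* thus did not give the same pattern in these clusters. *Itgb3* was higher after injury in both, at 44.8 against 0 CPM in cluster 5 and 14.2 against 0.273 CPM in cluster 2. Single cells held 51.9% and 66.7% of those injured counts. In the fibroblast-like cluster 3 the spread of *Itga5* over the groups was narrower, from 95.3 CPM in the uninjured tdTomato-EGFP+ sort to 212.4 CPM in the 3d_SCI tdTomato+EGFP+ sort. Single cells held 66.7% and 43.2% of the counts behind 95.3 and 212.4 CPM. In 3d_SCI tdTomato+EGFP+ cells, most counts of both genes were in the unnamed cluster 1. It held 93.3% of their *Itga5* counts (541.8 CPM) and 91.4% of their *Itgb3* counts (53.4 CPM). Cluster 3 held 6.21% and 8.56%.

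**Figure D4:**
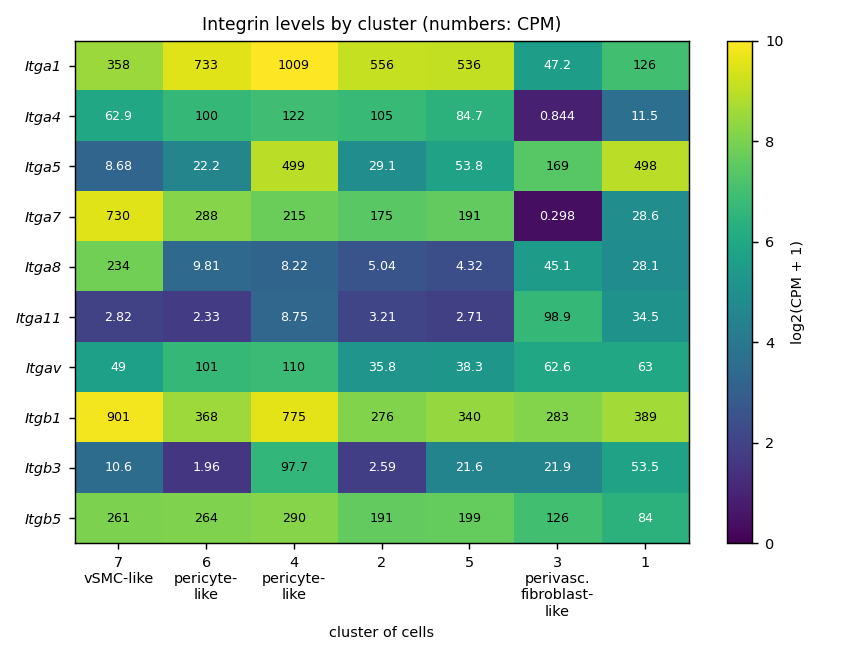
CPM of each integrin (numbers) in 7 clusters of cells, coloured by log2(CPM + 1). Names follow the list with most raised markers, and clusters 1, 2 and 5, which carried mixed markers, are unnamed. *Itga7* runs from 730.1 CPM in the vSMC-like cluster to 0.298 CPM in the perivascular fibroblast-like cluster, and *Itga11* is highest in the latter, at 98.9 CPM.

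*Itga8*, a partner of β1 that binds nephronectin, was held by different cells in the different groups. By cluster it was highest in the vSMC-like cells, at 233.9 CPM, followed by the fibroblast-like cells at 45.1 CPM and cluster 1 at 28.1 CPM, and it was 4.32 to 9.81 CPM in the other 4 clusters. In uninjured tdTomato-EGFP+ cells, 952 of its 1091 counts (87.3%) were in the 14 cells of the vSMC-like cluster. In uninjured tdTomato+EGFP+ cells, 536 of 786 counts (68.2%) were in the 26 cells of the fibroblast-like cluster, and in 3d_SCI tdTomato+EGFP+ cells 845 of 1218 counts (69.4%) were in cluster 1 and 372 (30.5%) in the fibroblast-like cluster. The 3d_SCI tdTomato-EGFP+ group had 1 vSMC-like cell, against 14 before injury.

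In its tdTomato-EGFP+ data the paper treats a set of fibroblasts positive for *Slc1a3* and *Pdgfra* as GLAST+ cells that had not recombined, and excludes them. Whether the tdTomato-EGFP+ cells of the fibroblast-like cluster are such cells was not tested. Within the fibroblast-like cluster *Itga8* followed the tdTomato label. It had a count in 13 of 26 uninjured and 13 of 18 3d_SCI tdTomato+EGFP+ cells, and in 0 of 8 uninjured and 0 of 18 3d_SCI tdTomato-EGFP+ cells. Its level was 60.7 CPM (149.1 and 17.8 on plates 209 and 213) and 83.5 CPM (78.3 and 162.1 on plates 211 and 215) in the tdTomato+EGFP+ cells. With 0 counts in both tdTomato-EGFP+ sets, 3 counts over each set were taken as the floor. The summed level in tdTomato+EGFP+ cells was 41.3 times this floor in the uninjured cord and 134.2 times it after injury. A single cell held 28% and 35.2% of those tdTomato+EGFP+ counts. Spread between cells is not covered, so these ratios are no lower bounds. They were 52 on plate 209 and 5.95 on plate 213 before injury. After it they were 54.4 on plate 211 and 148.7 on plate 215, the last from 4 tdTomato+EGFP+ cells. After thinning, 8 of 26 uninjured tdTomato+EGFP+ cells (14.3% to 51.8%) and 0 of 8 tdTomato-EGFP+ cells (0% to 36.9%) had a count. After injury it was 9 of 16 (29.9% to 80.2%) and 0 of 18 (0% to 18.5%). These intervals cover counting error only, and the cells are not replicates of a sort. In a clustering without regression of covariates the tdTomato-EGFP+ cells were again at 0 of 8 and 0 of 19, while at a lower resolution, where the fibroblast-like cluster was larger, 6 of 36 3d_SCI tdTomato-EGFP+ cells had a count (5.74 CPM).

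*Itga11* did not follow the label in this way. Among uninjured cells of cluster 3 it had a count in 21 of 26 that were tdTomato+EGFP+ (101.7 CPM) and in 7 of 8 that were tdTomato-EGFP+ (118.7 CPM). After injury it was 13.9 CPM in 18 tdTomato+EGFP+ cells, with 10.3 CPM on plate 211 and 68.5 CPM on plate 215, and 163.8 CPM in 18 tdTomato-EGFP+ cells. Few cells stand behind each of these values. Cluster 3 held 75.9% of the *Itga11* counts of uninjured and 72.5% of those of 3d_SCI tdTomato-EGFP+ cells. It held 7.55% of the cells of that sort before and 17.5% after injury. A single cell held 31.6% of the uninjured and 22.5% of the 3d_SCI counts of that sort. The part of this in the higher *Itga11* of that sort was not tested.

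**Figure D5:**
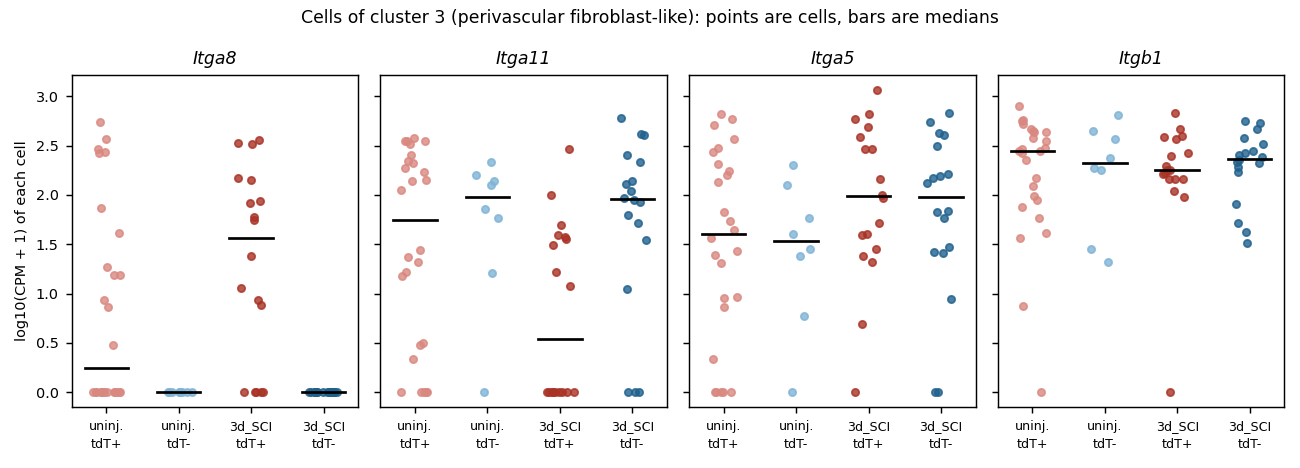
Level of 4 integrins in single cells of the perivascular fibroblast-like cluster, as log10(CPM + 1) of each cell, in the 4 groups; points are cells and bars are medians. All *Itga8* points of both tdTomato-EGFP+ groups lie at 0, while 13 of 26 and 13 of 18 tdTomato+EGFP+ cells have counts.

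The genes whose levels went most with each member across 421 cells thinned to 20000 counts are given as a description, with Pearson's r over cells that share plates and depth. *Itga1* went with the pericyte genes *Rgs5* (0.79), *Car4* (0.76) and *Vtn* (0.75), and *Itga7* with *Notch3* (0.64), *Cspg4* (0.62) and *Gucy1b1* (0.61). *Itga4* went with *Car4* (0.52), *Art3* (0.51) and *Cerkl* (0.50). *Itga5* went with the matrix cross-linking enzyme *Loxl2* (0.73), tenascin C (*Tnc*, 0.71) and *Tubb6* (0.67), and *Itgb3* with *Tnc* (0.49), *Itga5* (0.49) and *Ccn4* (0.45). *Itga11* went with *Mfap5* (0.52), *Clec3b* (0.51) and *Col12a1* (0.51), and *Itga8* with *Palld* (0.40), *Lama1* (0.37) and *Ckb* (0.37). *Itgb1* went with *Flna* (0.45), *Tpm2* (0.44) and *Acta2* (0.44). For *Itgav* and *Itgb5* the highest r was 0.27 (*Oacyl*) and 0.32 (*Notch3*). Among the members themselves, *Itga1* went with *Itga7* (0.48) and *Itga4* (0.46), and *Itga5* ran against *Itga7* (-0.33) and *Itga1* (-0.30).

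The ligands of these receptors were read from lists of RGD-type ligands (15 genes) and of collagens and laminins (13 genes). In tdTomato+EGFP+ cells, 8 of 13 tested RGD-type ligands were called higher after injury and 3 lower, with a median log2 difference of 1.62 against -0.59 for all genes, of which 10.8% were called higher and 34.3% lower. *Tnc* was 990.4 CPM against 8.54 CPM, and *Spp1* (osteopontin, a ligand of αvβ3) 23594 against 364.5 CPM. *Npnt* (nephronectin, the ligand of α8β1) was 0.4176 against 12 CPM. In tdTomato-EGFP+ cells 6 of 15 were called higher and 2 lower, where 9.52% and 17% of all genes were, with *Spp1* at 1444 against 36.67 CPM, *Postn* at 392.3 against 15.06 CPM and *Npnt* at 1.053 against 12.76 CPM. Of the collagens and laminins, 3 of 13 were called higher and 4 lower in tdTomato+EGFP+ cells, and 7 of 12 higher and 1 lower in tdTomato-EGFP+ cells. The 4 of 13 lower in the first are near the share of all genes. *Col1a1* was 3220 against 634.9 CPM in the first and 1550 against 252.7 CPM in the second, whereas *Lama5*, of the vascular basement membrane, was 8.897 against 96.18 CPM in the first. *Lama1* separated the populations in both conditions, at 196.7 against 4.612 CPM in the uninjured cord and 185.8 against 4.601 CPM after injury.

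Within the receptor system itself, 16 other integrin subunits and 24 activators and plaque proteins were counted. In tdTomato+EGFP+ cells 3 of 4 other subunits tested were called lower after injury, where 34.3% of all genes were. Among them were *Itga6*, another laminin receptor subunit, at 3.854 against 148.5 CPM, and *Itga3*, at 4.047 against 38.8 CPM. In tdTomato-EGFP+ cells 3 of 5 were called lower, with *Itga6* at 30.92 against 183.3 CPM, where 17% of all genes were. In tdTomato+EGFP+ cells 7 of 22 activators and plaque proteins were called lower, led by *Lims2* (6.231 against 203 CPM), *Tns1* (144.3 against 916.7 CPM), *Parvb* and *Tns2*, and 3 were called higher. The share of 7 in 22 is near the 34.3% of all genes called lower in this comparison, and is no result about these proteins. In tdTomato-EGFP+ cells 3 were called lower and 1 higher, where 17% and 9.52% of all genes were. The higher one was *Zyx*, at 144.9 against 68.99 CPM. In the uninjured cord none of the 22 was called between the sorted populations, where 4.31% of all genes were called higher and 3.61% lower. After injury 6 were called lower in tdTomato+EGFP+ cells, where 17.9% of all genes were. With 22 genes, no result about these proteins is read from these counts.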

How the data were processed

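The authors deposited raw read counts in 1 table of genes by cells. Of its 1968 columns, 503 match the samples described here and 1465 were not used. Their methods name Smart-seq3 and a mouse reference of RefSeq, and the submitters' processing notes list mm10; the aligner of this table is not given in the sources used here. The labels give 3 days after injury, although the text on the series gives another day. Spike-in rows (92, 0.0314% of counts) were left out. Cells with at least 200 genes and at most 20% mitochondrial counts were kept, and 34 cells high in *Pecam1* were removed. Doublets were not called. Counts were summed by group and by plate, scaled to CPM and compared as differences of log2(CPM + 1), with the call rule stated in the text. Clusters were made with Seurat 5.3.0 at a resolution of 0.5 (alternative 0.3), and scaling alternatives with edgeR 4.0.16 and DESeq2 1.42.0. Intervals were computed in scipy 1.17.1. The computation of the differences and the call rule was checked on simulated counts; this is no test of the groups. Exon lengths come from GENCODE M21 and upstream sequences from RefSeq. All 10 members are named in each comparison, up to 4 called genes of each list by size, and the 3 genes with the highest correlation, over genes with a count in 10% of cells or more. The members, lists and comparisons were chosen with earlier results of these data known.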

Additional observations from a re-analysis of the deposited data

Results flagged for a closer look

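*Itga8* is the member whose injury effects went in opposite directions in the 2 sorted populations: on all 4 plate pairs it was higher after injury in tdTomato+EGFP+ cells and lower in tdTomato-EGFP+ cells. The effects were 0.90, which was not called, and -2.32. Their difference was 3.22 on the log2 scale, and it was not tested. Without cells with 100 CPM or more of endothelial genes both effects were negative, -1.52 and -4.66, with a difference of 3.13. The make-up of the groups also differed: 14 uninjured tdTomato-EGFP+ cells (13.2% of that group) and 1 3d_SCI tdTomato-EGFP+ cell (0.971%) were vSMC-like. The part of this in the difference was not tested.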

How the results depend on the processing

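No paired analysis was possible because no test was made and the replicate numbers only name cells; the sorts were set side by side within each plate. Of 23 member calls over the 5 comparisons, 10 were kept in every alternative that could be run; 24 of the counts below moved by over 1.5 times. In the uninjured cord the number of members higher in tdTomato+EGFP+ cells (2) became 0 with median-of-ratios scaling, a pseudocount of 10 CPM, equal weight of plates, without plate 213 or with at most 1200 genes per cell, and 1 when each cell's CPM was averaged, without the marker-based removal or without cells over 100 CPM of endothelial genes. The number lower (0) became 1 when each cell's CPM was averaged and without plate 213, 2 without plate 209 and 3 without the endothelial-marked cells. After injury, the number higher in tdTomato+EGFP+ than in tdTomato-EGFP+ cells (1) became 2 with median-of-ratios scaling and 3 without endothelial-marked cells. For injury in tdTomato+EGFP+ cells, the number higher (2) became 5 with median-of-ratios scaling and 4 without plate 211, and the number lower (4) became 2 without endothelial-marked cells and 0 with at most 1200 genes (10, 13, 10 and 0 cells). For the difference of injury effects, the number lower (5) became 3 with median-of-ratios scaling, without plate 211 and without endothelial-marked cells, and the number higher (1) became 2 in the last. Without endothelial-marked cells *Itga4* reversed to 1.59 in tdTomato+EGFP+ and *Itgb3* to -0.20 in tdTomato-EGFP+ cells. The causes were not tested beyond the fewer cells in each. Scaling also moved the median of all genes, for injury in tdTomato+EGFP+ cells from -0.59 to 0.13 with TMM. Members with a count in 50% or more of 3d_SCI tdTomato+EGFP+ cells (4) became 8 without thinning and 2 with thinning to 10000 counts, so shares near detection depend on depth.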
